A study of Mus musculus with 8 samples.

Results

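The genes described here are the clustered core and linker histone genes of the mouse, which encode the proteins that package newly made DNA. They were taken as every probe whose platform symbol, or a RefSeq symbol or synonym of its gene, began with Hist1h, Hist2h, Hist3h or Hist4h. For each gene 1 probe was used, the one with the largest standard deviation (SD) over the 8 arrays. This gave 91 probes for 61 of the 21946 named genes on the array: 6 linker histone H1 genes, 18 H2A, 15 H2B, 9 H3 and 13 H4 genes. The set was chosen by the measured values of siG9a minus control, since H2A genes were lower after knockdown, so all such differences below describe the choice and were not tested. The day comparisons did not enter the choice of genes and were tested. The SD that chose each gene's probe does include the day change. The probe used can therefore show a wider day change than other probes of the same gene.

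The samples were mouse skeletal muscle myoblasts, the precursor cells of muscle fibres, and total RNA of each was hybridised to 1 Illumina WG-6 array. The siG9a cells had received a short interfering RNA directed at G9a, the product of Ehmt2, an enzyme that methylates lysine 9 of histone H3, and the control cells a scrambled siRNA. The 4 groups were siG9a at day 1, siG9a at day 0, control at day 1 and control at day 0, each with 2 biological replicates. The labels give neither the event from which the days were counted nor the strain, the siRNA sequence or whether the myoblasts were primary cells or a cell line. Values are log-scale and set against each probe's own baseline. They are taken as log2, a base that is not stated, so they show differences between arrays but not how abundant a transcript is. Precision is limited by the number of arrays: with 2 against 2, the smallest p that an exact two-sided permutation test allows is 0.333.

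Most of these genes are replication-dependent: their mRNAs accumulate in S phase, when DNA is copied, and are removed when DNA synthesis stops. Their transcripts end in a stem-loop instead of a poly(A) tail, which the stem-loop binding protein Slbp recognises, and NPAT, a substrate of cyclin E with CDK2, activates their transcription at dedicated nuclear bodies. H2A-H2B dimers and an H3-H4 tetramer form the nucleosome core, and H1 binds the linker DNA beside it. In muscle, myoblasts leave the cell cycle when they differentiate, and replication-dependent histone mRNAs are known to fall then. Some histone genes, among them those for H1.2 and certain H2B proteins, are known in human cells to give polyadenylated transcripts as well. The labels state only a standard Illumina labelling protocol. How well tail-less histone mRNA was labelled was not tested.

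The genes lie in clusters, mostly on chromosome 13 (48 genes) and chromosome 3 (9 genes), and many H2A and H2B genes share a promoter region from which they are transcribed in opposite directions. The promoters of 4 genes are shown because their genes stand for the patterns found: H2ac21, with the smallest p among H2A genes, H2ac11, which starts 249 bases from H2bc11, H2ac18, whose values ran in the other direction, and H4c9, an H4 gene with no CCAAT. Each is the 250 bases before the gene's start on the gene's own strand, from RefSeq on GRCm38.p6, at chr3:96219635-96219884 on the plus strand for H2ac21, chr13:22042950-22043199 on the minus strand for H2ac11, chr3:96245247-96245496 on the plus strand for H2ac18 and chr13:22041363-22041612 on the minus strand for H4c9. Capitals mark CCAAT (or ATTGG, its form on the other strand), TATAAA and TTTCGCGC.
H2ac21: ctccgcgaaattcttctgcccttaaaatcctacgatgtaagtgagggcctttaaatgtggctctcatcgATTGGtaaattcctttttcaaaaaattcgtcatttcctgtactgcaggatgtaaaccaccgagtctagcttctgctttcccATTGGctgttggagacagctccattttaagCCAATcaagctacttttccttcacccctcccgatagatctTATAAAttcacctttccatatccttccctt
H2ac11: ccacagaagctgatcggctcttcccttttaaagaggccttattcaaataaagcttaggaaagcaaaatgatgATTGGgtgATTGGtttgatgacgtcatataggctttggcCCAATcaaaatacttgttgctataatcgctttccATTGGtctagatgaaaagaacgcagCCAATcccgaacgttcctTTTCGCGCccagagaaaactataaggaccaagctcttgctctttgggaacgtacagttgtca
H2ac18: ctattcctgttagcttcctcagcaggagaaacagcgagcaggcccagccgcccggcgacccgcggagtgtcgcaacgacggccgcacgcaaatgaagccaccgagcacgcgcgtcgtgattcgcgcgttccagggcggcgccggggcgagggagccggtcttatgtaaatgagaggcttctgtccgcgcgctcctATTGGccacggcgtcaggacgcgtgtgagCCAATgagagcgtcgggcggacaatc
H4c9: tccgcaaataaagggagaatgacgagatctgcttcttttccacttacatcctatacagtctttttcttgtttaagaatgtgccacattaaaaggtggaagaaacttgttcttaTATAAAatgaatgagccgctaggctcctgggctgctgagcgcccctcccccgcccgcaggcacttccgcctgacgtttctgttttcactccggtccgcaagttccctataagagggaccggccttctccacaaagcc

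Promoter windows were available for 54 of the 61 genes (55 windows) and were searched on both strands. CCAAT was found in all 6 H1, all 17 H2A, all 13 H2B and 6 of 7 H3 windows, but in 3 of 12 H4 windows, against 33.8% of 32851 windows of the same length over all genes. TATAAA was found in 26 of 55 histone windows (47.3%) and in 12.4% of all windows. The octamer ATTTGCAT was found in 7 of 17 H2A and 7 of 13 H2B windows and in no H1, H3 or H4 window, against 1.6% of all windows. AAACACA, the H1 box, was found in 5 of 6 H1, 2 of 17 H2A and 2 of 13 H2B windows, in no H3 or H4 window, and in 6.25% of all. Any of the E2F forms TTTCGCGC, TTTCCCGC and TTTGGCGC was found in 3 H2A, 3 H2B and 1 H4 windows and in 1.53% of all. No motif contains another. The windows of H2A and H2B genes that share a promoter region overlap, so a match in the shared bases counts in both classes. These matches describe letters in the window and show no binding.

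**Figure D1:**
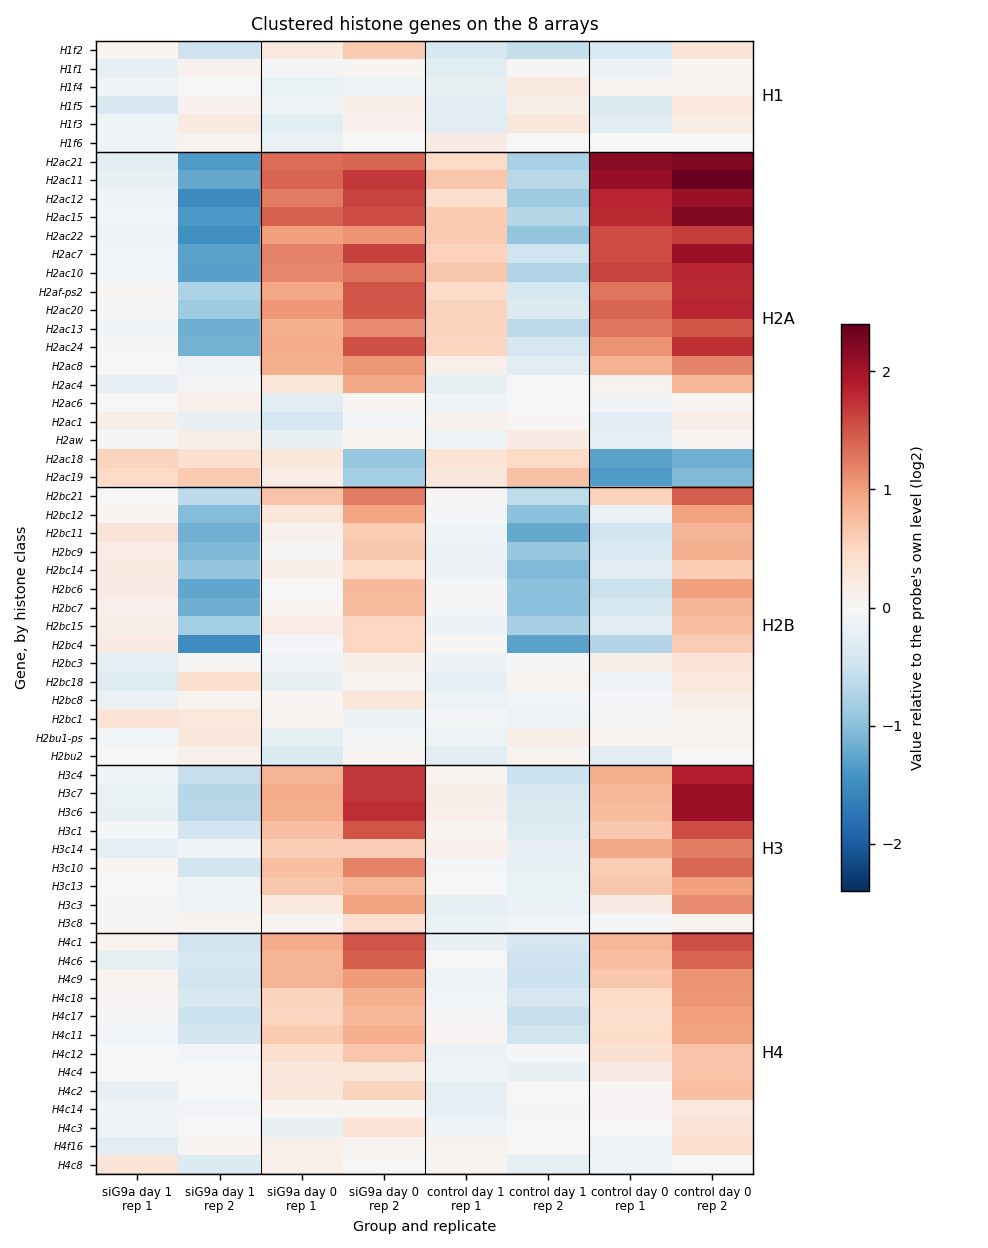
Values of the 61 histone genes (down the page, by class and by their day change in control) on the 8 arrays (across), in log2 units against each probe's own baseline, red high and blue low. Most H2A, H3 and H4 genes are red on the day 0 arrays of both siG9a and control, while H2ac18 and H2ac19 are blue on 3 of the 4 day 0 arrays.

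Ehmt2 was lower in siG9a than in control in all 4 pairs of the same day and replicate, by -1.72 and -0.96 at day 1 and by -2.05 and -1.28 at day 0. Array medians over all features lay between -0.15 and 0.12. The 8 markers of differentiating muscle, such as myogenin (Myog), had medians of 0.61 and -0.31 in siG9a at day 1, -1.26 and -4.67 in siG9a at day 0, 0.55 and -0.51 in control at day 1, and -2.26 and -4.90 in control at day 0 (replicates 1 and 2). They were thus higher at day 1 in both replicates, and replicate 2 at day 0 stood lowest. Medians of the 6 myoblast markers ran the same way, with day changes of 0.68 in siG9a and 0.92 in control. Lists for fibroblasts (7 genes), adipocytes (4), endothelial cells (5) and macrophages (5) had median day changes between -0.06 and 0.19. Whether any defining marker was absent cannot be seen in relative values.

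The first comparison asked how histone transcripts differed between day 1 and day 0. In both siG9a and control cells, most H2A, H3 and H4 genes were lower at day 1, the H2B median was below 0 in replicate 2 alone, and H1 medians were near 0. The median day change over the 18 H2A genes was -1.66 in siG9a and -1.46 in control. It was -1.15 and -1.11 over the 9 H3 genes, -0.57 and -0.61 over the 13 H4 genes, -0.67 and -0.70 over the 15 H2B genes, and 0.00 and -0.03 over the 6 H1 genes, again with siG9a given before control. The median over all 31443 features was 0.09 in siG9a and 0.01 in control. In siG9a, both day 1 arrays lay under both day 0 arrays for 36 of 61 histone genes (9.94% of all features did so), and in control for 38 of 61 (13.1% of all).

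By limma with a Benjamini-Hochberg adjustment over all features, 0 histone genes passed an adjusted p of 0.05 in siG9a in either direction, where 0.677% of all features were called lower and 0.229% higher. At an unadjusted p under 0.05 in limma there were 31 histone genes and 2458 of 31443 features in siG9a, and 31 and 2421 in control. At the adjusted threshold, 3 histone genes fell in control (0.76% of all features did) and 1 rose (0.363% did). None of these 4 passed after median centring or quantile normalization of the arrays, and each was lost when certain single arrays were left out. The replicate numbers paired the samples, and with the replicate number in the model (the blocked fit) 26 histone genes were called lower in siG9a, 13 H2A, 7 H3 and 6 H4, against 5.56% of all features, and none higher (3.42%). In control the blocked fit called 28 lower, 12 H2A, 8 H3 and 8 H4, against 4.97% of all features, and 2 higher, H2ac18 and H2ac19, against 3.85%. No H1 or H2B gene was called in any of these fits.

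**Figure D2:**
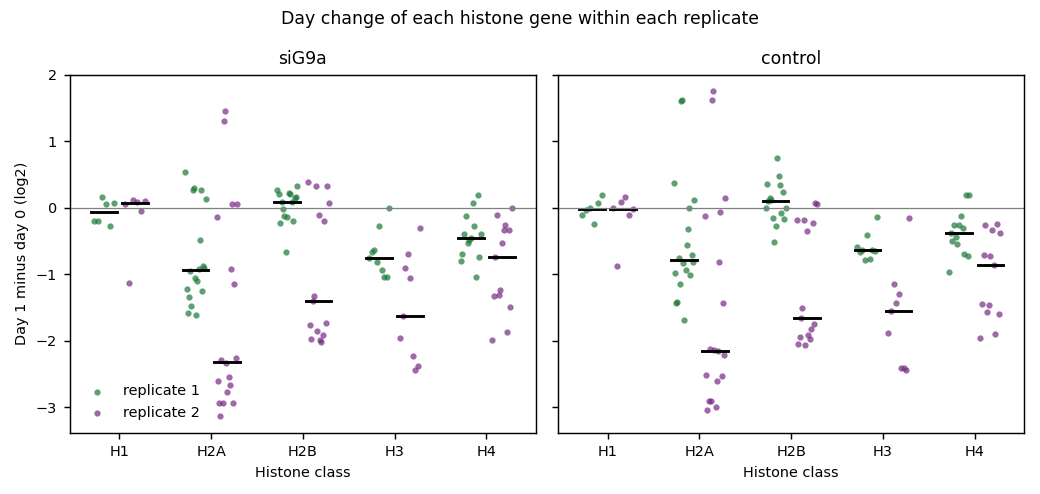
Day 1 minus day 0 (log2) of each histone gene, by class, in siG9a (left) and control (right), with replicate 1 in green, replicate 2 in purple and a bar at the class median. H2A medians are near -0.9 and -2.3 in siG9a and -0.8 and -2.1 in control, and H2B medians are near 0.1 in replicate 1 and below -1.3 in replicate 2.

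The 18 H2A genes are described in 2 sets, split by the knockdown values that chose the genes: 11 were lower in siG9a in all 4 pairs of the same day and replicate, and 7 were not. The 11, called the 11-gene set below, were H2ac7, H2ac10, H2ac11, H2ac12, H2ac13, H2ac15, H2ac20, H2ac21, H2ac22, H2ac24 and the transcribed pseudogene H2af-ps2. H2ac21 (formerly Hist2h2ab) had -0.27 and -1.37 in siG9a at day 1 and 1.35 and 1.40 in siG9a at day 0, against 0.47 and -0.78 in control at day 1 and 2.16 and 2.22 in control at day 0. The day 1 arrays did not overlap the day 0 arrays in either condition, and the highest level was that of control at day 0. It fell by 2.34 ± 0.43 (SE, n = 2 arrays per group) in control, with an adjusted p of 0.0464 in limma. The day change in siG9a was -2.19 ± 0.43, with an adjusted p of 0.0626, or 0.00249 in the blocked limma fit.

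H2ac11 (Hist1h2ag) had -0.18 and -1.23 in siG9a at day 1 and 1.39 and 1.70 in siG9a at day 0, against 0.66 and -0.67 in control at day 1 and 2.09 and 2.38 in control at day 0. H2ac12 (Hist1h2ah) had -0.09 and -1.52 in siG9a at day 1 and 1.25 and 1.61 in siG9a at day 0, against 0.42 and -0.84 in control at day 1 and 1.84 and 2.07 in control at day 0. H2ac15 (Hist1h2ak) had -0.06 and -1.38 in siG9a at day 1 and 1.42 and 1.56 in siG9a at day 0, against 0.64 and -0.69 in control at day 1 and 1.78 and 2.22 in control at day 0. These genes encode canonical H2A proteins and kept the order of H2ac21, lowest in replicate 2 of siG9a at day 1 and highest in replicate 2 of control at day 0. Their day changes were -2.25 ± 0.45, -2.24 ± 0.50 and -2.21 ± 0.49 in siG9a and -2.24 ± 0.45, -2.16 ± 0.50 and -2.03 ± 0.49 in control (SE, n = 2 arrays per group), in the order H2ac11, H2ac12 and H2ac15. None passed in limma without the block (adjusted p between 0.0601 and 0.116), and all passed with it.

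Over the whole 11-gene set, values ran from -0.27 to 0.02 in replicate 1 and from -1.52 to -0.75 in replicate 2 of siG9a at day 1. In siG9a at day 0 they ran from 0.86 to 1.42 and from 1.08 to 1.70. In control at day 1 they ran from 0.42 to 0.66 and from -0.95 to -0.32, and in control at day 0 from 1.08 to 2.16 and from 1.48 to 2.38. Within each replicate the set was therefore lower at day 1 than at day 0 in every gene. Its median day change was -1.91 in siG9a and -1.77 in control, and adjusted p in limma ran from 0.0626 to 0.228 in siG9a and from 0.0464 to 0.297 in control. In the blocked fit all 11 passed in siG9a and 10 in control, H2ac24 being the exception (adjusted p 0.0842 in blocked limma). Pearson correlations between members over the 8 arrays ran from 0.954 to 0.999 (median 0.991 over 55 gene pairs). The arrays are shared and the set was split on these values, so the correlations are a description. The coding sequences of these genes are close to one another, and how far each probe also binds the others' transcripts was not tested, so the 11 genes may not be separate measurements.

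Of the other 7 H2A genes, H2ac8 (Hist1h2ae) was lower at day 1 but not in the pattern of the 11-gene set. It had -0.00 and -0.09 in siG9a at day 1 and 0.87 and 1.06 in siG9a at day 0, against 0.12 and -0.25 in control at day 1 and 0.84 and 1.19 in control at day 0. Day 1 and day 0 were apart, while siG9a and control lay close at each day. It fell by 1.08 ± 0.20 in control (limma, adjusted p 0.0479) and its day change in siG9a was -1.01 ± 0.20 (adjusted p 0.0652, or 0.00474 in the blocked fit). H2ac4 had day changes of -0.71 in siG9a and -0.57 in control, and passed in both with the block alone. H2ac1, a gene known for its testis-specific H2A, H2ac6 and H2aw had day changes between -0.03 and 0.20 and did not pass in either fit.

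H2ac18 and H2ac19, a pair of neighbouring genes for H2A on chromosome 3, went in the opposite direction. H2ac19 (Hist2h2aa2) had 0.48 and 0.63 in siG9a at day 1 and 0.18 and -0.81 in siG9a at day 0, against 0.26 and 0.70 in control at day 1 and -1.35 and -1.06 in control at day 0. It rose by 1.69 ± 0.31 in control (limma, adjusted p 0.048), and its day change in siG9a was 0.87 ± 0.31 (adjusted p 0.426, or 0.108 in the blocked fit). H2ac18 (Hist2h2aa1) had 0.53 and 0.39 in siG9a at day 1 and 0.27 and -0.91 in siG9a at day 0, against 0.33 and 0.47 in control at day 1 and -1.28 and -1.15 in control at day 0. Replicate 1 of siG9a at day 0 stood apart from the other 3 day 0 arrays in both genes. The day change of H2ac18 was 0.78 ± 0.33 in siG9a (limma, adjusted p 0.578) and 1.61 ± 0.33 in control (adjusted p 0.0627, or 0.00591 with the block). The direction of both genes, and that of the 11 others, was the same after median centring and after quantile normalization of the arrays. The 2 genes encode the same protein, and their probes may not tell them apart. The 2 further probes of H2ac18 gave smaller day changes, 0.31 and -0.04 in siG9a and 1.01 and 0.21 in control.

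The H2B genes split by replicate. H2bc21 (Hist2h2be) had 0.00 and -0.62 in siG9a at day 1 and 0.68 and 1.23 in siG9a at day 0, against 0.04 and -0.61 in control at day 1 and 0.56 and 1.45 in control at day 0. H2bc12 (Hist1h2bk) had 0.05 and -1.03 in siG9a at day 1 and 0.27 and 0.95 in siG9a at day 0, against -0.05 and -0.98 in control at day 1 and -0.15 and 0.96 in control at day 0. H2bc21 was lower at day 1 in both replicates, whereas H2bc12 in control was so in replicate 2 alone. Their day changes were -1.26 ± 0.37 and -1.10 ± 0.49 in siG9a and -1.29 ± 0.37 and -0.93 ± 0.49 in control. Neither passed in limma (adjusted p between 0.202 and 0.894, with the block between 0.0503 and 0.36). The further probe of H2bc21 gave smaller day changes, -0.36 in siG9a and -0.21 in control. That of H2bc12 gave -0.74 and -0.71. Over the 9 H2B genes whose SD over the 8 arrays was above 0.5, the change in replicate 1 ran from -0.67 to 0.23 in siG9a and from -0.52 to 0.74 in control. In replicate 2 it ran from -2.02 to -1.32 in siG9a and from -2.06 to -1.52 in control. The remaining 6 were H2bc1 (testis-specific H2B), H2bc3, H2bc8, H2bc18, H2bu2 and the transcribed pseudogene H2bu1-ps. Their day changes lay between -0.32 and 0.33. The SD includes the day change, so the wider changes of the 9 genes than of the remaining 6 follow from the split.

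For H3, the core histone that G9a methylates, both day 1 arrays lay under both day 0 arrays for 8 of 9 genes in siG9a and for 9 of 9 in control. H3c14 (Hist2h3c1) had -0.23 and -0.10 in siG9a at day 1 and 0.59 and 0.59 in siG9a at day 0, against 0.12 and -0.20 in control at day 1 and 0.90 and 1.23 in control at day 0. It fell by 1.11 ± 0.19 in control (limma, adjusted p 0.0359), and its day change in siG9a was -0.76 ± 0.19 (adjusted p 0.147, or 0.0125 with the block). A further probe of H3c14 gave 0.22 in control, and with the mean of it and the chosen probe the control change was -0.44 and did not pass. Another further probe of H3c14, listed under an older name, gave -0.14 in control and was not in that mean. H3c13 (Hist2h3b) had -0.00 and -0.11 in siG9a at day 1 and 0.64 and 0.79 in siG9a at day 0, against 0.00 and -0.17 in control at day 1 and 0.65 and 0.99 in control at day 0. Both genes encode the replication-coupled form H3.2. Those with the widest day change on the probe used lay on chromosome 13: H3c4 at -1.58 in siG9a and -1.59 in control, H3c7 at -1.71 and -1.54, H3c6 at -1.74 and -1.53. Other probes of these genes differed: the further probe of H3c4 gave 0.15 in siG9a and 0.05 in control. The 3 further probes of H3c7 gave -0.71, -0.04 and 0.04 in siG9a and -0.84, 0.01 and 0.15 in control. On the probes used, H3c4, H3c6 and H3c7 passed in the blocked fit alone, as did H3c1, H3c10 and H3c13. H3c3 passed with the block in control alone, and the difference between the conditions was not called. H3c8 had -0.16 in siG9a and -0.15 in control and passed in neither.

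All H4 genes encode the same protein. H4c1 (Hist1h4a) had 0.08 and -0.47 in siG9a at day 1 and 0.89 and 1.51 in siG9a at day 0, against -0.17 and -0.40 in control at day 1 and 0.79 and 1.55 in control at day 0. H4c6 (Hist1h4f) had -0.22 and -0.42 in siG9a at day 1 and 0.82 and 1.45 in siG9a at day 0, against 0.01 and -0.50 in control at day 1 and 0.72 and 1.40 in control at day 0. H4c9 (Hist1h4i), whose promoter window above holds no CCAAT, had 0.08 and -0.46 in siG9a at day 1 and 0.82 and 1.02 in siG9a at day 0, against -0.08 and -0.52 in control at day 1 and 0.65 and 1.09 in control at day 0. In all 3 the days were apart and the conditions overlapped. Their day changes were -1.40 ± 0.32, -1.46 ± 0.30 and -1.11 ± 0.25 in siG9a and -1.46 ± 0.32, -1.30 ± 0.30 and -1.17 ± 0.25 in control, with adjusted p in limma between 0.0754 and 0.106, and all passed with the block. The further probes of H4c6 gave -0.53 and -0.24 in siG9a and -0.65 and -0.39 in control, and with the mean of its 3 probes its day change in siG9a was -0.74 (limma, adjusted p 0.228). H4c11, H4c12 and H4c18 also passed with the block in both conditions, H4c4 and H4c17 in control. H4c2, H4c3, H4c8, H4c14 and H4f16 passed in neither, with day changes between -0.50 and -0.03.

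Apart from H1f2, the linker histone genes showed small differences. H1f2 (Hist1h1c, encoding H1.2) had 0.04 and -0.51 in siG9a at day 1 and 0.24 and 0.63 in siG9a at day 0, against -0.39 and -0.58 in control at day 1 and -0.36 and 0.30 in control at day 0. Its day change was -0.67 ± 0.28 in siG9a and -0.45 ± 0.28 in control and did not pass in limma (adjusted p 0.57 and 1), nor with the block (0.144 and 0.401). H1f5 had -0.39 and 0.11 in siG9a at day 1 and -0.12 and 0.16 in siG9a at day 0, against -0.25 and 0.14 in control at day 1 and -0.32 and 0.25 in control at day 0. H1f6, known as the testis H1, had -0.10 and 0.09 in siG9a at day 1 and -0.16 and -0.01 in siG9a at day 0, against 0.21 and -0.01 in control at day 1 and 0.01 and 0.01 in control at day 0. In H1f5 and H1f6 the days overlapped. H1f1, H1f3 and H1f4 had day changes between -0.07 and 0.13.

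The size of the day change differed between the replicates. In H2A the class median of day 1 minus day 0 was -0.94 in replicate 1 and -2.31 in replicate 2 of siG9a, and -0.79 and -2.15 in control. H3 medians were -0.76 and -1.63 in siG9a and -0.64 and -1.55 in control, and H4 medians -0.46 and -0.74 in siG9a and -0.39 and -0.86 in control. H2B medians were 0.09 and -1.40 in siG9a and 0.10 and -1.66 in control, so the H2B decrease rests on replicate 2. H1 medians lay between -0.07 and 0.07. The differentiating muscle markers also moved more in replicate 2, by a median of 2.01 in replicate 1 and 4.34 in replicate 2 of siG9a and by 2.96 and 4.44 in control. Their part in the histone values was not tested. The difference between the day changes of siG9a and control was called for 0 histone genes and for 0% of all features, with and without the block. At an unadjusted p under 0.05 it held 0 histone genes of 18 features in limma and 1 of 1382 features in the blocked fit.

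**Figure D3:**
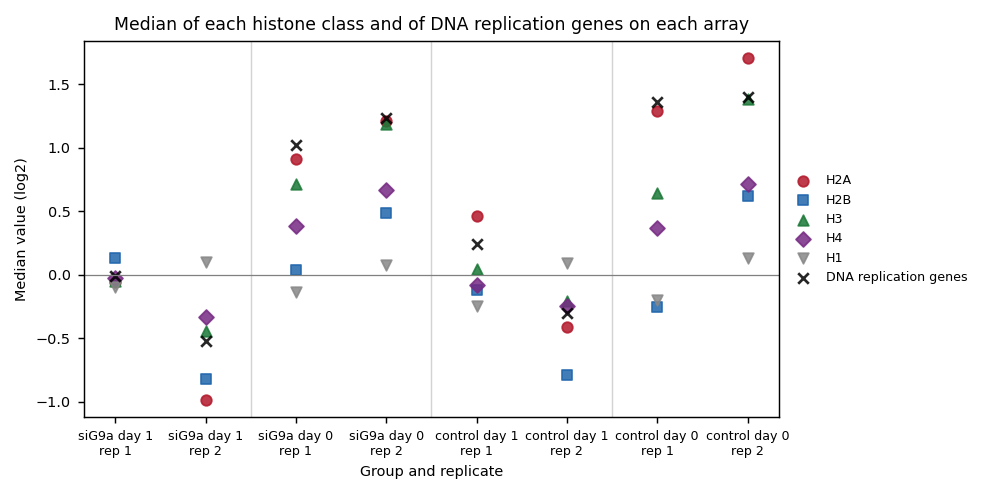
Median value (log2) of each histone class and of the 39 DNA replication genes on each of the 8 arrays, by group and replicate. The H2A median and the replication median are both above 0.9 on all 4 day 0 arrays, and the H2B median is above 0.4 on the day 0 arrays of replicate 2 alone.

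The second comparison set siG9a beside control within day and replicate, and it is the comparison by which the genes were picked, so it carries no test. H2A genes were lower in siG9a, with class medians of -0.53 and -0.52 at day 1 and -0.36 and -0.31 at day 0 (replicates 1 and 2). Of 61 histone genes, 12 were lower in siG9a in all 4 pairs (8.37% of all features were) and 3 were higher in all 4 (6.64%). The 12 were the 11-gene set of H2A and H3c4, and the 3 were H1f1, H1f2 and H3c8. By the mean of both days, the further probe of H3c8 had -0.08 with 3 pairs lower, against 0.17 on the probe used. That of H1f2 had 0.26 with 1 pair lower, and that of H3c4 had 0.03 with 2 pairs lower. The mean over both days had a median of -0.43 in H2A, 0.08 in H2B, -0.06 in H3, 0.00 in H4 and 0.00 in H1, against 0.00 over all features.

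The 11 genes were set apart by being lower in all 4 pairs, so the sign of their values and their contrast with the other 7 follow from that split. In the 11-gene set, siG9a minus control ran from -0.85 to -0.44 and from -0.81 to -0.33 at day 1, and from -0.81 to -0.18 and from -0.81 to -0.21 at day 0, in replicates 1 and 2. H2ac21 differed most by the mean of both days, by -0.74, and H2af-ps2 least, by -0.35. In the other 7 H2A genes the mean ran from -0.12 in H2ac1 to 0.48 in H2ac19. H2ac8 had -0.02, with 2 pairs lower and 2 higher. H2ac18 and H2ac19 were higher in siG9a by 1.54 in replicate 1 at day 0, by 0.24 in replicate 2 at day 0, and by 0.21 in replicate 1 at day 1, but were lower by -0.08 and -0.06 in replicate 2 at day 1. Their positive mean therefore rests mainly on replicate 1 at day 0.

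**Figure D4:**
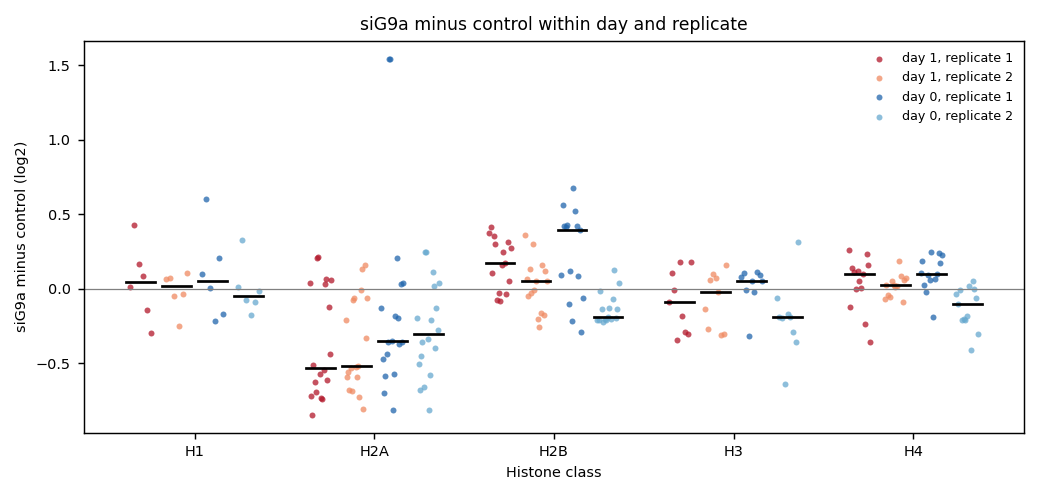
siG9a minus control (log2) of each histone gene by class in the 4 pairs of the same day and replicate, with a bar at the class median. The H2A medians lie between -0.53 and -0.31 in all 4 pairs, while the H2B medians lie on both sides of 0, at 0.17, 0.05, 0.39 and -0.19 from left to right, and the points at 1.54 are H2ac18 and H2ac19.

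In the other classes, the H2B median was 0.17 and 0.05 at day 1 and 0.39 and -0.19 at day 0, and 0 H2B genes were lower in all 4 pairs. The H3 median was -0.09 and -0.02 at day 1 and 0.05 and -0.19 at day 0. H3c4 was lower in all 4 pairs but by a mean of -0.11, and H3c14 by -0.30 with 3 pairs lower. H4 medians were 0.10 and 0.02 at day 1 and 0.10 and -0.10 at day 0. H1f2 was higher in siG9a by 0.43 and 0.07 at day 1 and by 0.60 and 0.33 at day 0.

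Head-to-head genes allow H2A and H2B to be set side by side at the same place. Among the 54 genes with a promoter window there were 6 such pairs, all on chromosome 13, with 164 to 281 bases between the starts, and pairs that involve the remaining genes were not looked for. In siG9a minus control, averaged over both days, H2ac11 had -0.70 and H2bc11 0.21, H2ac12 had -0.56 and H2bc12 0.11, H2ac15 had -0.60 and H2bc15 0.12, and H2ac7 had -0.55 and H2bc7 0.09. These 4 H2A genes belong to the 11-gene set, so being lower in all 4 comparisons is how they were set apart. Their H2B partners were lower in 1 or 2 of the 4. H2ac8 and H2bc8 had -0.02 and 0.08, and H2ac1 and H2bc1 -0.12 and 0.15. The day change in control was also larger in the H2A gene of the pair in the first 4, for example -2.24 in H2ac11 and -0.84 in H2bc11. The same held outside the 11-gene set for H2ac8 and H2bc8, with -1.08 and -0.16. H2ac1 and H2bc1 had 0.12 and -0.10. Relative values set no level of one probe against another, so these are differences between conditions, not amounts.

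**Figure D5:**
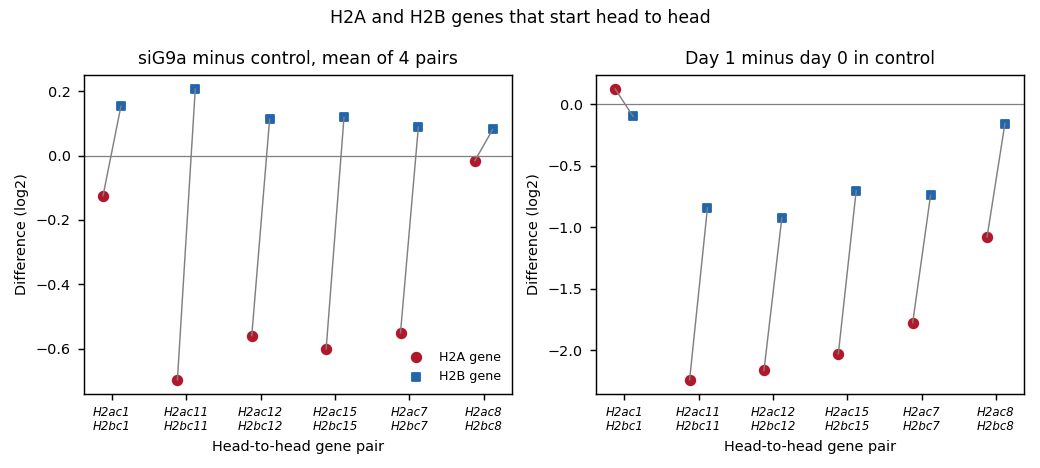
The 6 head-to-head pairs of H2A (circles) and H2B (squares) genes: siG9a minus control as the mean of 4 pairs (left) and day 1 minus day 0 in control (right), in log2 units. In H2ac7, H2ac11, H2ac12 and H2ac15 the H2A gene lies at or below -0.55 in the left panel while its H2B partner lies between 0.09 and 0.21; these 4 H2A genes were set apart by being lower in all 4 pairs.

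Genes that work with histones were read from the same fits. Of 27 measured genes of histone mRNA synthesis and 3′ end processing, 0 were called in either condition in limma without the block, and 5 were called lower in each with it (5.56% of all features in siG9a and 4.97% in control). Named after their values were seen, these were Ccne1, Ccne2, Srrt and Nelfe in both, Atm in siG9a and Ncbp2 in control. The list's median day change was -0.09 in siG9a and -0.12 in control. Of its 27 genes, 4 were lower in siG9a in all 4 pairs (8.37% of all features) and 1 was higher in all 4 (6.64%). Cyclin E2 (Ccne2) had -0.31 and -0.22 in siG9a at day 1 and 0.84 and 2.47 in siG9a at day 0, against -0.16 and 0.00 in control at day 1 and 1.51 and 2.42 in control at day 0. Cyclin E1 (Ccne1) had a day change of -1.39 ± 0.32 in siG9a and -1.35 ± 0.32 in control, with adjusted p of 0.119 and 0.116 in limma and 0.000515 for each in the blocked fit. Lsm10, a part of the U7 snRNP that cuts histone pre-mRNA, went the other way at 0.23 and 0.48 and did not pass (adjusted p 0.98 in siG9a and 0.404 in control).

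Among 27 histone chaperones and assembly factors, 5 were called lower in siG9a and 7 in control, against 0.677% and 0.76% of all features. With the block 11 were lower in each, against 5.56% and 4.97% of all features, and 1, Rbbp4, was higher in each, against 3.42% and 3.85%. The 5 were Chaf1a, Chaf1b, Mis18a, Tonsl and Mms22l, all of which were among the 7 in control. The median day change was -0.43 in siG9a and -0.31 in control. Of these 27 genes, 10 were lower in siG9a in all 4 pairs (8.37% of all features) and 1 was higher in all 4 (6.64%). Asf1b, an H3-H4 chaperone of dividing cells, fell by 1.54 ± 0.24 in control (limma, adjusted p 0.028). Chaf1b, a subunit of the assembly factor CAF-1, fell by 1.90 ± 0.30 in siG9a and fell by 1.87 ± 0.30 in control (limma, adjusted p 0.0296 and 0.0299). Mis18a, which prepares centromeres for new CENP-A, fell by 1.91 ± 0.25 in siG9a and fell by 1.86 ± 0.25 in control (limma, adjusted p 0.0173 and 0.019).

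Of 15 histone variants made outside the clusters, 2 were called lower in siG9a (Cenpa and H2az1) and 1 in control (Cenpa), against 0.677% and 0.76% of all features, and 5 and 7 with the block, against 5.56% and 4.97%. Cenpa, the centromeric H3 variant, fell by 2.08 ± 0.28 in siG9a and fell by 1.75 ± 0.28 in control (limma, adjusted p 0.0198 and 0.0307). H2az1, which encodes H2A.Z, fell by 1.33 ± 0.23 in siG9a (limma, adjusted p 0.0376) and had -1.14 ± 0.23 in control (adjusted p 0.0597). H2ax, the variant phosphorylated at DNA breaks, had day changes of -1.88 in siG9a and -1.78 in control, with adjusted p of 0.0509 and 0.0551 in limma. In siG9a minus control, 7 of the 15 were lower in all 4 pairs (8.37% of all features), with a median of -0.12 by the mean of both days.

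The 39 measured genes of DNA replication had a median day change of -1.48 in siG9a and -1.52 in control, with 8 and 12 called lower, against 0.677% and 0.76% of all features, and 35 in each with the block, against 5.56% and 4.97%. Cdt1, which loads the replicative helicase, fell by 1.79 ± 0.22 in siG9a and fell by 1.81 ± 0.22 in control (limma, adjusted p 0.0167 and 0.0186). In siG9a minus control their median by the mean of both days was -0.25, and 26 of 39 were lower in all 4 pairs, against 8.37% of all features. Per array, the replication median was -0.01 and -0.52 in siG9a at day 1, 1.02 and 1.23 in siG9a at day 0, 0.24 and -0.30 in control at day 1, and 1.36 and 1.40 in control at day 0. In each pair siG9a lay under control, as the H2A median did. In bulk RNA, fewer cells in S phase and less histone mRNA per cell cannot be told apart, and the part of replication in the H2A difference was not tested.

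Of the 61 genes, 22 had more than 1 probe, with 30 further probes in all. The further probe had the same sign as the one used for 24 of 30 in the day change of control and for 20 of 30 in that of siG9a. For H2ac7, H2ac10, H2ac12 and H2ac13 the further probe was lower in siG9a in all 4 pairs too. Besides the probes of H3c4, H3c7 and H4c6 given above, the further probe of H2bc4 gave 0.13 in siG9a and 0.08 in control, against -0.88 and -0.58 on the probe used. The further probe of H2ac20 also differed: its day change was 0.25 in siG9a and 0.63 in control, against -1.70 and -1.49 on the probe used, and it was higher in siG9a in all 4 pairs.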

How the data were processed

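Illumina WG-6 v2.0 arrays measured total RNA of 8 samples. The deposited log2 values (base not stated, natural log possible) are the authors' processed table of 45281 probes, whose background correction and normalization no source used here states. A second table with 16 columns that match no sample by name was not used, so detection is unknown here and no filter on low values was applied: all 61 histone genes were fitted. The members, gene lists and tests were chosen with earlier results of these data known.

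Platform symbols were updated through RefSeq gene IDs, and 1 probe per gene (largest SD) left 31443 features. One probe under an older name was counted as a further probe of H3c14. A linear model of 4 group means over 8 arrays was fitted in limma 3.58.1 (R 4.3.3), with Benjamini-Hochberg adjustment over all features and a threshold of 0.05. Differences are siG9a minus control and day 1 minus day 0, and SEs are moderated. Same-numbered replicates deviated together over all 6 pairs of groups (r between 0.613 and 0.865), so the blocked fit, with replicate number as a term, is given beside it. Per-array values are given by rule for the 2 genes per class with the smallest p in each day comparison. The rule also covered every H2A gene lower in all 4 pairs. Of these, only H2ac11, H2ac12, H2ac15 and H2ac21 are given singly, and the others as ranges over the set. From each other list up to 3 genes with the smallest p in control were named. H2ac18 and others were added by name after their values were seen. Alternatives were the block, median centring, quantile normalization, the mean of probes, every probe, a robust prior, the 15722 features with larger SD, a natural log and leaving out each array. The model without the block was also run on simulated arrays with no deviation shared by same-numbered replicates. That run cannot show how the model behaves with such deviations.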

Additional observations from a re-analysis of the deposited data

How the results depend on the processing

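With the replicate block, the count of histone genes called lower at day 1 became 26 in siG9a (0 without it) and 28 in control (3 without it), and the count called higher in control became 2 (1 without it). With only the 15722 features with larger SD, these counts were 8, 7 and 2. With the mean of all probes of a gene, 1 was called lower in siG9a. With median centring or quantile normalization, 0 were called in control in either direction. The cause was not tested. Leaving out 1 array at a time gave 0 to 7 lower and 0 to 0 higher in siG9a, 0 to 4 lower and 0 to 2 higher in control, and 0 to 0 called in the difference between day changes. The 7 came without replicate 1 or 2 of control at day 1. In control, 0 were lower without either day 0 array of siG9a or of control or without replicate 2 of control at day 1. None was higher in control (0) without any one array of siG9a at day 1 or of control, and 2 were without either of siG9a at day 0. Fitted medians of siG9a minus control ran from -0.67 to -0.18 in H2A when 1 array was left out, and these ends came without replicate 1 and replicate 2 of siG9a at day 1. They ran from -0.10 to 0.10 in H1, -0.13 to 0.36 in H2B, -0.29 to 0.13 in H3 and -0.14 to 0.13 in H4. These fits had no replicate block, so leaving out 1 array broke a pair, and the ranges include the difference between the replicates. In the 4 intact pairs the H2A class medians lay between -0.53 and -0.31. With a natural log the H2A median was -0.62. The day change of H1f5 in siG9a ran from -0.412 to 0.0844 without replicate 2 or 1 of siG9a at day 1, and that of H1f6 in control from -0.0231 to 0.196 without replicate 1 or 2 of control at day 1. Signal over background, which limits what dim probes can show, is unknown here.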
